A study of Mus musculus with 6 samples.

Results

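Transcripts of 9 genes that write, erase or read DNA methylation were followed in mouse cells described as vascular smooth muscle, with and without Nono. Cells of that type give vessel walls their tone. The 9 genes are Dnmt1, Dnmt3a, Dnmt3b, Uhrf1, Tet1, Tet2, Tet3, Mbd2 and Zfp57, chosen as named genes of this pathway and not by a threshold on their values. The choice was made with earlier results of these data known. All 9 were found by symbol among the 56393 genes of the deposited count table, and all 9 passed the filter on low counts, the lowest count of any of them in any library being 36. RNA sequencing covered 3 wild-type libraries (WT) and 3 knockout libraries (KO) of cells labelled primary, grown in serum-containing medium with no further treatment. Nono, the gene knocked out, encodes a paraspeckle protein that binds RNA and DNA. The labels give neither the strain, the sex and the age of the animals nor how the knockout was made, and nothing in them ties the replicates to separate cultures. The p-values therefore reflect no more than the variation among these libraries, which may be technical.

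DNA methylation marks cytosines that precede a guanine, and it is laid down by de novo enzymes and copied onto the new strand after each round of replication. Maintenance rests on Dnmt1 and on Uhrf1, which recognises hemimethylated DNA and recruits Dnmt1 to it, while Dnmt3a and Dnmt3b place new marks. Tet enzymes oxidise methylcytosine as the route to its removal, methyl-CpG-binding proteins such as Mbd2 recruit repressors, and the zinc finger protein Zfp57 protects the methylated allele of imprinted regions. Only transcripts were measured here, and DNA methylation itself was not.

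Nono was counted at 523, 502 and 519 CPM (counts scaled to a common library total after TMM normalization) in the WT libraries and at 55.97, 54.8 and 51.1 CPM in the KO libraries, 9.54-fold lower (log2 fold change -3.25 ± 0.05 SE, adjusted p = 1.63e-09 by edgeR). Library totals lay between 56529170 and 61670083 counts. Of 8 smooth muscle markers, 5 were called higher in KO and 2 lower. Their sum ranged from 73.2 to 86.8 CPM in WT libraries and from 249.5 to 252 CPM in KO libraries, most of the difference being Acta2 (16.4 and 161 CPM), while Des was 5.06-fold and Mylk 2.08-fold lower and Myh11 stood at or under 0.734 CPM in every library. In WT, Tagln averaged 0.859, Cnn1 0.0212, Lmod1 1.41 and Smtn 47.8 CPM, against 15.0, 3.49, 7.52 and 58.1 CPM in KO. Apart from Acta2 and Smtn, these markers were low in WT, so they do not establish the cell type there. The 6 fibroblast markers summed to 78.7 to 104.8 CPM in WT and 5710 to 6281 CPM in KO, with 5 called higher. Of 7 epithelial and mesothelial markers, 4 were tested, 2 called higher and 2 lower. Their sum ranged from 77.0 to 84.8 CPM across WT and from 9.77 to 13.3 CPM across KO, with Msln 90.4-fold and Krt19 7.07-fold lower and Wt1 36.3-fold higher. Msln had 3, 13 and 22 counts in the KO libraries and Wt1 had 4, 6 and 0 in the WT libraries. The folds of Msln and Wt1 thus rest on few counts in the lower group. The 4 Y-linked genes summed to 0 to 0.0795 CPM in WT and 149.9 to 163.3 CPM in KO. Eif2s3y, Kdm5d and Uty had no count in any WT library, so the groups differed in Y-linked transcripts as well as in Nono. These differences separate the same libraries as genotype, and their part in the results below cannot be told apart from it.

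The members moved in both directions. Maintenance genes were lower in KO, with Uhrf1 8.95-fold and Dnmt1 2.73-fold lower, and Tet1 was 9.62-fold higher. The other members differed by less than 2-fold. Of the 9, 2 were called higher (Tet1 and Tet2) and 5 lower (Dnmt1, Uhrf1, Dnmt3b, Tet3 and Mbd2) by the quasi-likelihood test of edgeR at an adjusted p of 0.05, against 35.1% and 34.2% of the 18732 genes tested. Dnmt3a and Zfp57 were not called. In either direction 69.3% of all tested genes were called, and the CPM of the groups did not overlap in 8 of 9 members and in 75.5% of tested genes, so the share of members called lies close to that of the whole transcriptome. The median log2 fold change of the members was -0.24, against 0.03 over all tested genes.

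**Figure D1:**
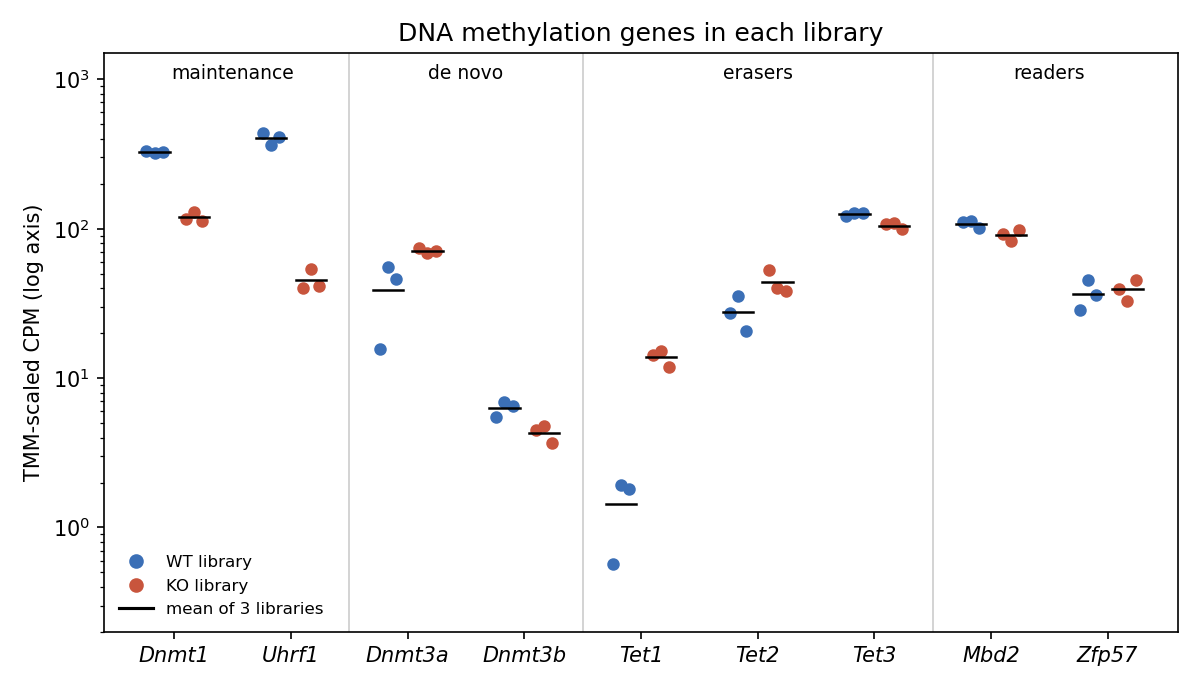
TMM-scaled CPM of each gene on a log axis, with 1 point for each library (WT blue, KO red) and a bar at the mean of 3 libraries. Uhrf1 and Dnmt1 lie lower and Tet1 higher in all 3 KO libraries, and WT replicate 1 lies below the other WT libraries for Dnmt3a (15.55 CPM) and Tet1 (0.57 CPM).

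Uhrf1, the reader of hemimethylated DNA that brings Dnmt1 to the replication fork, was at 435, 363 and 414 CPM in WT and at 39.8, 53.8 and 41.7 CPM in KO. The highest KO library lay far under the lowest WT library. The log2 fold change was -3.16 ± 0.14 (SE; 95% interval -3.48 to -2.84; edgeR adjusted p = 8e-07), and 5.27% of all tested genes fell at least as far. Dnmt1, the maintenance methyltransferase, was at 329, 322 and 327.5 CPM in WT and at 117, 128.5 and 113 CPM in KO. Its libraries were close within each group, with an SD of 3.61 CPM in WT and 8.04 CPM in KO. The log2 fold change was -1.45 ± 0.05 (SE; 95% interval -1.58 to -1.32; edgeR adjusted p = 9.08e-08), and 15.2% of all tested genes fell at least as far. The counts of Dnmt1 per count of Uhrf1 were 0.756, 0.888 and 0.792 in WT libraries against 2.93, 2.39 and 2.72 in KO, with no overlap between the groups. These ratios carry no length correction and are read only between groups.

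Both genes are known to be expressed mostly in dividing cells. A list of 25 S phase genes, also chosen with earlier results of these data known, was read beside them. All 25 were called lower in KO, against 34.2% of all tested genes, with a median log2 fold change of -2.73. Their summed level ranged from 4682 to 5410 CPM in WT libraries and from 858 to 981 CPM in KO libraries. Cdt1, which licenses replication origins, was 8.60-fold lower, and Pola1 and Prim1, subunits of the polymerase that primes DNA synthesis, were 8.49-fold and 6.66-fold lower. Dnmt1 lay above that median and Uhrf1 below it. In bulk RNA, fewer cycling cells and less RNA per cell cannot be told apart, and the part of cycling cells in the fall of Uhrf1 and Dnmt1 was not tested.

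The promoters of these maintenance genes were searched for 4 binding words of E2F, the transcription factor family of S phase genes: TTTCCCGC, TTTGGCGC, TTTCGCGC and TTTGCCGC, on both strands. The sequences are from RefSeq on build GRCm38.p6 and span 250 bases before to 50 after each annotated start. Of the members, 8 had an entry, and Mbd2 did not. Both Dnmt1 and Uhrf1 held a word in a window, and the other 6 members had none, against 2.6% of the 27025 genes with an entry and 9 of 20 listed S phase genes. The stretches that hold the words are shown for the pair and for Hells, Cdca7 and Lig1, the 3 of 6 maintenance cofactors described below that held one (Pcna, Usp7 and Uhrf2 had none), 5′ to 3′ on the gene's strand with the word or its reverse complement in capitals.
Dnmt1, chr9:20952824-20952853, minus strand: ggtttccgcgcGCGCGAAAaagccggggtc
Dnmt1, chr9:20952574-20952601, minus strand: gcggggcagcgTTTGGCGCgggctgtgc
Uhrf1, chr17:56304117-56304146, plus strand: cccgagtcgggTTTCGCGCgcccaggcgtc
Hells, chr19:38930917-38930946, plus strand: gaccaccgggtTTTCCCGCgaaagagaagc
Cdca7, chr2:72476137-72476166, plus strand: tgcgtcccggcGCGGGAAAgccggtggccc
Lig1, chr7:13278841-13278870, plus strand: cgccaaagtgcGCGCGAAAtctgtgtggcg
The Dnmt1 words start 219 bases before and 34 bases after the most downstream of its 3 annotated starts, and that of Uhrf1 185 bases before the downstream of its 2 starts. Neither gene held a word in the window of its most upstream start. In those windows 0 of 8 members held one, against 2.33% of genes. All 4 words contain a CpG, and the windows of Dnmt1 and Uhrf1 that held a word had 33 CpG dinucleotides each. The share of 2.6% counts any window of a gene and was matched neither for CpG content nor for the number of windows. A match describes these letters and shows no binding. The windows also differ in CpG dinucleotides, the substrate of the enzymes themselves. With 1 window each, Tet2 held 57, Dnmt3b 30, Tet3 22 and Tet1 17. Dnmt3a held 18 to 47 in 3 windows, Dnmt1 2 to 33 in 3, Uhrf1 12 to 33 in 2 and Zfp57 4 to 9 in 3. Over the most upstream windows alone, the median was 19.5 for the 8 members and 7 for all genes.

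The de novo enzymes did not move together. Dnmt3a was at 15.55, 55.4 and 45.8 CPM in WT and at 74.7, 68.3 and 70.9 CPM in KO. All KO libraries lay above all WT libraries, but WT replicate 1 stood at 30.7% of the mean of the other WT libraries. The log2 fold change of 0.87 ± 0.47 (SE; 95% interval -0.33 to 2.08) missed the threshold (adjusted p = 0.156 by edgeR). Without WT replicate 1 it was 0.50 and passed (edgeR adjusted p = 0.00202). From the deposited FPKM (a level per transcript length and library size, as deposited by the authors), where WT replicate 1 was at 3.99 and the others at 6.84 and 6.56, it was 0.58 on the log2(FPKM + 0.1) scale (limma adjusted p = 0.0424). Its FPKM for each CPM differed up to 2.47-fold between libraries, against 1.68-fold for Dnmt3b and at most 1.23-fold for Dnmt1, Uhrf1, Tet2, Tet3, Mbd2 and Zfp57. In GENCODE M21 the only exons of another gene that overlap those of Dnmt3a belong to the antisense gene Dnmt3aos (133 bases), which had 0 to 10 counts in a library.

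WT replicate 1 was not low in general: 35 of 9712 genes at 10 CPM or more in the other WT libraries were at or under 50% of their mean there, against 37 to 50 genes for the other 5 libraries. Zbtb4, a zinc finger reader of methylated CpG named here after its values were seen, was low in the same library, with 410 counts against 2375 and 2548 in the other WT libraries and 4552 to 5268 in KO. Its log2 fold change was 1.56 ± 0.70 (SE; adjusted p = 0.105 by edgeR), and without WT replicate 1 it was 1.09 (adjusted p = 6.11e-06).

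Dnmt3b, the de novo enzyme best known from early embryos, was scarce in both groups, at 5.45, 6.92 and 6.504 CPM in WT and 4.50, 4.78 and 3.68 CPM in KO. The groups did not overlap. It was 1.46-fold lower in KO (log2 fold change -0.54 with an SE of 0.17, adjusted p = 0.0201 by edgeR), a call that was lost when WT replicate 2, WT replicate 3 or KO replicate 3 was left out (log2 fold change -0.63 to -0.44 and adjusted p up to 0.0675 over the 6 fits that leave out 1 library). Dnmt3l, the catalytically inactive partner of the de novo enzymes, had 0 to 18 counts in a library, and Dnmt3c, an enzyme of the male germ line, had 1 count in all. Trdmt1 (Dnmt2), a relative that methylates transfer RNA, was 2.29-fold lower (adjusted p = 0.000527 by edgeR).

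The erasers differed from each other. Tet1, whose product binds CpG-rich DNA through a CXXC domain, was at 0.57, 1.92 and 1.797 CPM in WT (36, 115 and 113 counts) and at 14.2, 15.2 and 11.9 CPM in KO (831, 833 and 702 counts). Every KO library was above every WT library. The log2 fold change was 3.27 ± 0.41 (SE; 95% interval 2.28 to 4.25; edgeR adjusted p = 0.000285), and 6.88% of tested genes rose at least as far. Left out in turn, the libraries gave 2.89 to 3.53, the lowest without WT replicate 1. The deposited FPKM of Tet1 was 0.0359, 0.413 and 0.113 in WT and 1.43, 1.91 and 1.69 in KO, and its FPKM for each CPM differed up to 3.43-fold between libraries.

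Tet2, which lacks a CXXC domain of its own, was at 27.1, 35.5 and 20.8 CPM in WT and at 53.3, 40.3 and 38.5 CPM in KO. The lowest KO library lay only slightly above the highest WT library. The 1.58-fold rise passed the test (log2 fold change 0.66 with an SE of 0.21, adjusted p = 0.0285 by edgeR), and the call was lost without WT replicate 1, without KO replicate 1 and with scaling by total counts (adjusted p up to 0.0798). Tet3, the Tet enzyme known from the zygote, was at 121, 128 and 127 CPM in WT and at 107, 109 and 99.5 CPM in KO. This 1.19-fold decrease was small but larger than the spread within groups (log2 fold change -0.25 with an SE of 0.05, adjusted p = 0.00268 by edgeR), and it passed in each of the 6 fits that leave out 1 library.

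Mbd2, which binds methylated CpG and recruits the NuRD corepressor, was at 111, 112 and 101 CPM in WT and at 92.7, 83.1 and 98.5 CPM in KO. The groups came close without overlapping. The log2 fold change was -0.24 ± 0.08 (SE; adjusted p = 0.0198 by edgeR), and the call was lost without WT replicate 1, WT replicate 2 or KO replicate 2 (adjusted p up to 0.0652). Scaling by total counts moved the median log2 fold change of all tested genes from 0.03 to -0.10, and relative to that median Tet3 was at -0.29 and Mbd2 at -0.27, distances that a change of scaling leaves nearly as they are by construction.

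Zfp57, the imprint-protecting zinc finger protein known from embryonic stem cells, was clearly counted in both groups, at 28.6, 45.5 and 36.2 CPM in WT and at 39.6, 32.9 and 45.4 CPM in KO. The libraries of the groups overlapped fully. The log2 fold change was 0.10 ± 0.19 (SE; adjusted p = 0.666 by edgeR), its 95% interval ran from -0.34 to 0.53, and its sign turned with scaling by total counts, in the FPKM and when WT replicate 1 or KO replicate 3 was left out. Markers of pluripotent and germ cells were near 0 beside it: 7 of 12 had no count in any library, Sox2, Zfp42 and Lin28a among them, and the 12 summed to 0.875 to 1.03 CPM in WT and 0.236 to 0.645 CPM in KO.

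**Figure D2:**
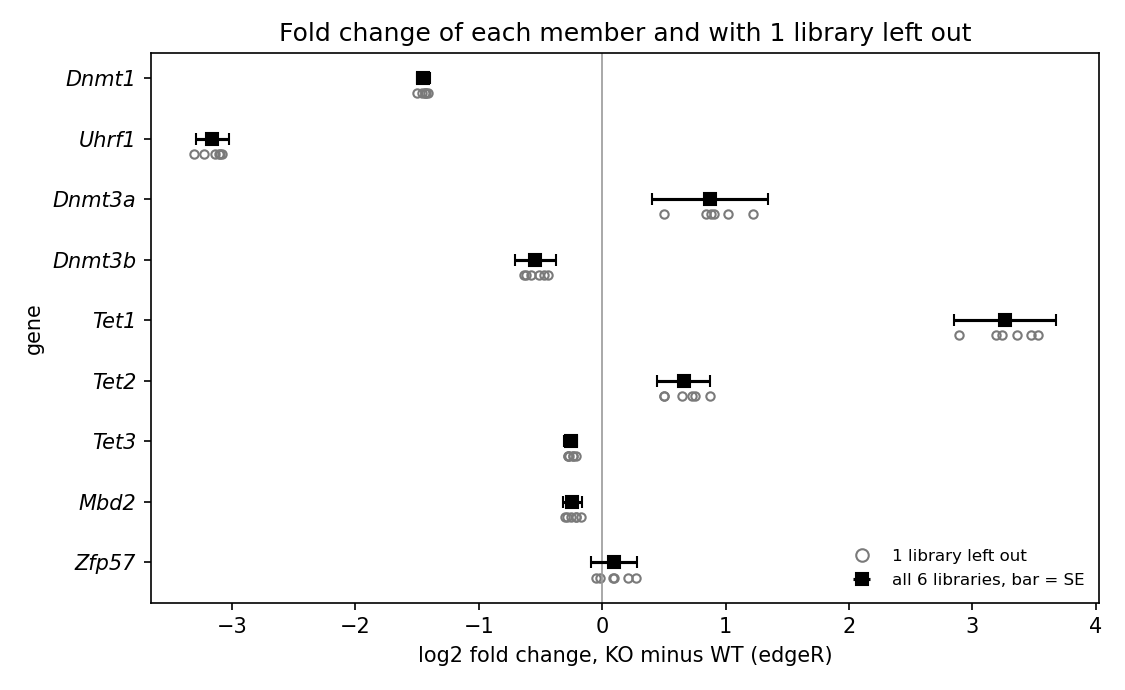
Log2 fold change (KO minus WT, edgeR) of each gene with its SE (black squares and bars) and the values with 1 library left out (open circles). Uhrf1, Dnmt1 and Tet1 lie far from 0 in every fit, Dnmt3a ranges from 0.50 to 1.22, and Zfp57 lies on both sides of 0.

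Ratios of counts within a library show how the balance of members differed. Gene length cancels in their change where it is the same in all libraries. That was not established for Dnmt3a, Dnmt3b and Tet1, whose FPKM for each CPM varied between libraries. Dnmt3a counts per Dnmt3b count were 2.85, 8.01 and 7.04 in WT libraries against 16.6, 14.3 and 19.2 in KO, and Dnmt1 counts per Dnmt3a count were 21.2, 5.81 and 7.15 in WT libraries against 1.56, 1.88 and 1.6 in KO. Tet1 counts per Tet3 count were 0.00472, 0.015 and 0.0141 in WT libraries against 0.133, 0.139 and 0.12 in KO. The mean log2 ratio differed, KO minus WT, by 1.61, -2.52 and 3.7 for these in turn. From the deposited FPKM the differences were 1.13, -2.16 and 4.19. All 6 ratios examined (these, Dnmt1 to Uhrf1, Tet1 to Tet2 and Tet3 to Tet2) separated the groups without overlap, 3 libraries against 3. The ratios share members and are not separate results. Of single tested genes 75.5% did not overlap either, and no share over ratios of other genes was computed. The exact two-sided permutation p was 0.1 for each, also after adjustment over the 6 ratios, which is the smallest value that this design allows.

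Levels of different genes were ranked per length, in the deposited FPKM. In WT the order was Uhrf1 (114 ± 9.07, SD of 3 libraries), Dnmt1 (59.4 ± 0.50), Mbd2 (51.2 ± 3.23), Zfp57 (22.8 ± 4.15), Tet3 (11.5 ± 0.33), Dnmt3a (5.79 ± 1.57), Tet2 (4.37 ± 0.98), Dnmt3b (1.66 ± 0.24) and Tet1 (0.187 ± 0.20). Only Dnmt3a and Tet2 overlapped among these neighbours. In KO the order was Mbd2 (39.8 ± 3.45), Zfp57 (22.02 ± 2.35), Dnmt1 (20.0 ± 1.12), Uhrf1 (11.4 ± 1.96), Tet3 (8.83 ± 0.47), Dnmt3a (8.52 ± 0.70), Tet2 (7.01 ± 1.39), Tet1 (1.68 ± 0.24) and Dnmt3b (1.15 ± 0.21). There Zfp57 overlapped Dnmt1, and Dnmt3a overlapped both Tet3 and Tet2. Uhrf1 thus went from the first place to the fourth, and Tet1 from the last place to the eighth. In CPM per kilobase of merged exons, an alternative added after the data had been seen, Uhrf1 (10.59) and Zfp57 (10.38) overlapped in KO, and so did Tet1 (0.889) and Dnmt3b (0.846), so neither of those places is settled there.

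Within the Dnmt family, Dnmt1 held 91.6%, 87.3% and 87.7% of the summed FPKM in WT and 69.4%, 67.1% and 65.8% in KO, and the share of Dnmt3a averaged 8.62% ± 2.09 in WT and 28.7% ± 1.23 in KO (SD, n = 3). The family sum was 64.2 to 68.4 FPKM in WT and 28.4 to 31.7 FPKM in KO. Within the Tet family, the share of Tet3 was 67.6% to 77.0% in WT and 47.4% to 53.0% in KO, and that of Tet1 averaged 1.11% ± 1.11 and 9.66% ± 1.9 (SD, n = 3). The Tet sums of the groups overlapped, at 14.9 to 17.5 FPKM in WT and 16.2 to 19.09 FPKM in KO. No library of one group thus overlapped the other in the Dnmt sum or in the share of any member of either family. The shares within a family depend on each other and are not separate results. That of Dnmt3b averaged 2.48% in WT and 3.86% in KO, although Dnmt3b itself was lower in KO. Among single tested genes, the groups did not overlap in 75.5%. The sums themselves were not tested.

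**Figure D3:**
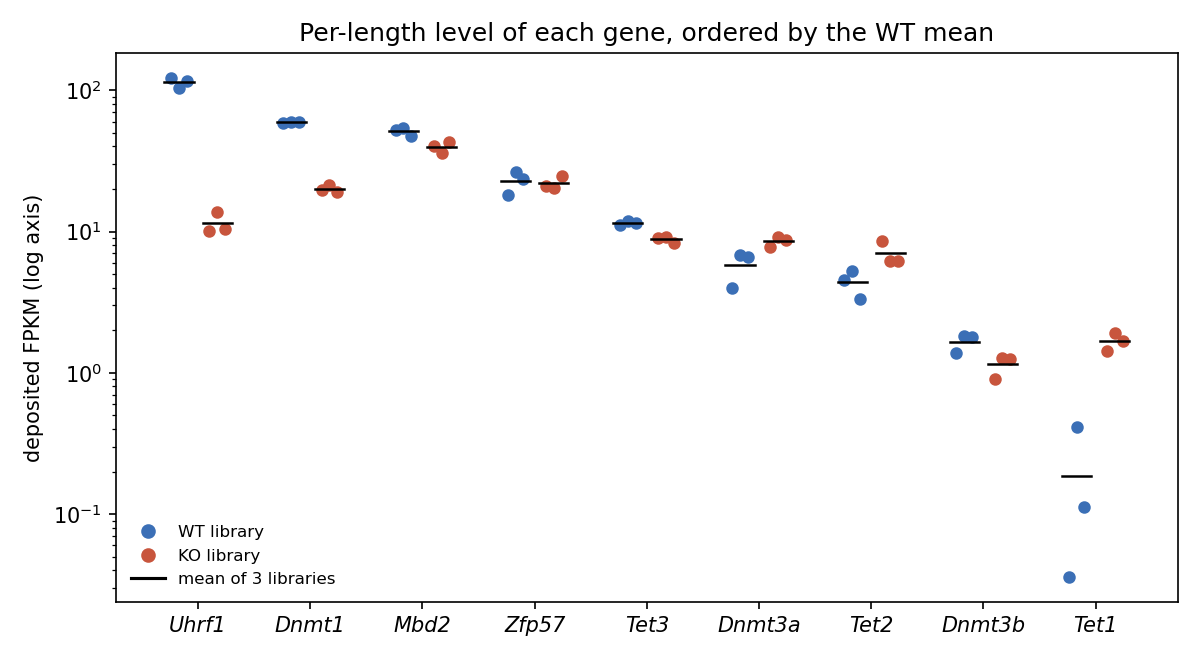
Deposited FPKM of each gene on a log axis, in the order of the WT mean, with 1 point for each library (WT blue, KO red) and a bar at the mean of 3 libraries. The KO means of Uhrf1 (11.4) and Dnmt1 (20.0) lie below those of Mbd2 (39.8) and Zfp57 (22.02).

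The other genes of the pathway were taken from lists by role, drawn up with earlier results of these data known. Of 52 such genes 50 were tested, and 15 were called higher and 25 lower, with a median log2 fold change of -0.19. Of all tested genes 69.3% were called, with 35.1% higher and 34.2% lower, so the listed genes leaned more to lower calls. That difference was not tested. The counts of the single lists below are to be read beside these shares. Of 6 tested maintenance cofactors 5 were lower and none higher by the same edgeR test (median log2 fold change -1.78). Hells, a chromatin remodeller needed for methylation of heterochromatin, averaged 443 ± 31.0 CPM in WT against 29.8 ± 3.65 CPM in KO (mean ± SD, n = 3 each), 14.9-fold lower. Cdca7, which recruits Hells, went from 147 ± 7.80 to 10.4 ± 2.09 CPM, 14.1-fold lower. Pcna, the sliding clamp of the replication fork to which Dnmt1 binds, was 4.67-fold lower. The other cofactors called lower were Lig1 and Usp7. Uhrf2, the paralog of Uhrf1, averaged 156 CPM in WT against 166 CPM in KO without a call (edgeR adjusted p = 0.381).

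**Figure D4:**
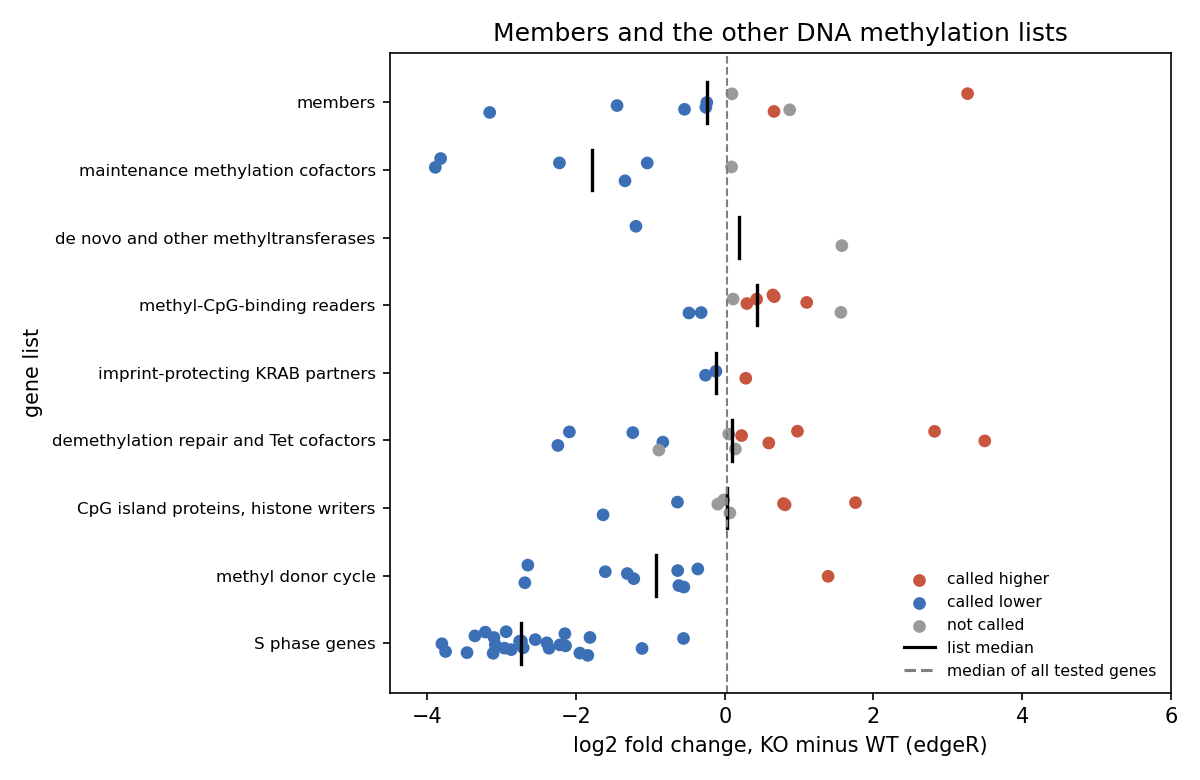
Log2 fold change (KO minus WT, edgeR) of the 9 members and of the tested genes of the other lists. The germline, cell type and Y-linked lists are left out. Each gene is 1 point (red called higher, blue called lower, grey not called). A black bar marks the list median and a dashed line the median of all tested genes. Medians of maintenance cofactors (-1.78), the methyl donor cycle (-0.93) and S phase genes (-2.73) lie left of the dashed line. That of the genes listed by family as methyl-CpG-binding readers (0.43) lies right of it.

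Among 9 genes listed by family as methyl-CpG-binding readers besides Mbd2, 5 were called higher and 2 lower, with a median log2 fold change of 0.43. Some genes of this list, Mbd3 among them, are not known as selective readers of methylated CpG. Mbd1, a CpG-binding repressor, was 2.15-fold higher (73.6 ± 1.03 CPM in WT, 158 ± 5.65 CPM in KO). Zbtb38 and Zbtb33 (Kaiso), zinc finger readers of methylated DNA, were 1.59-fold and 1.57-fold higher. Mbd3, the NuRD subunit related to Mbd2, and Mbd4, a glycosylase that removes thymine from mismatches at CpG, were the lower pair, at 1.25-fold and 1.40-fold. Of the partners of Zfp57, the corepressor Trim28 was 1.09-fold lower (edgeR adjusted p = 0.0461, a call held in 6 of 16 alternative settings) and the histone methyltransferase Setdb1 1.2-fold lower. Zfp445, the other imprint-protecting zinc finger protein, was 1.22-fold higher.

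Genes that act with or after the Tet enzymes were split. Of 12 tested, 5 were higher and 4 lower, with a median log2 fold change of 0.10. Idh1, which makes the 2-oxoglutarate that Tet enzymes need, was 11.3-fold higher (17.7 ± 1.45 CPM in WT, 200.1 ± 15.4 CPM in KO). Cxxc5, a CXXC-domain protein, was 7.07-fold higher, and its relative Cxxc4, a partner of Tet2, was 4.74-fold lower (adjusted p = 0.000204 by edgeR). Gadd45a, a stress-induced protein linked to demethylation, was 4.26-fold lower (383 ± 37.2 and 90.1 ± 1.0 CPM). Tdg, the glycosylase that cuts out the bases Tet enzymes oxidise furthest, was 2.36-fold lower. Among 8 tested CpG island proteins and histone writers that steer methylation, 3 were higher and 2 lower (median log2 fold change 0.03). Nsd2 and Nsd1, which both methylate histone H3 at lysine 36, went in opposite directions, Nsd2 3.11-fold lower and Nsd1 3.38-fold higher. Cxxc1, which binds unmethylated CpG, was 1.76-fold higher.

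Of 10 tested genes of the methyl donor cycle, 9 were lower and 1 higher, beside 34.2% and 35.1% of all tested genes, with a median log2 fold change of -0.93. The list holds enzymes that supply the methyl group and also genes related to other steps of the cycle. Shmt2 and Shmt1, which move a carbon unit from serine to folate, were 6.45-fold and 6.27-fold lower, and Mthfd1, a folate-interconverting enzyme, 3.05-fold. Mat2a, the catalytic subunit that makes S-adenosylmethionine, the methyl donor of every DNA methyltransferase, averaged 262 ± 18.9 CPM in WT against 106 ± 3.93 CPM in KO, 2.48-fold lower. Its regulatory subunit Mat2b was the exception, 2.62-fold higher. No metabolite was measured.

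Germline genes that promoter methylation is known to silence in body cells were also read. Of 15 listed genes 7, Dazl among them, had no count in any library. Another 3 had too few counts to be tested: Tex19.1 with 0 in every WT library and 5, 5 and 9 in KO, Slc25a31 with 9 counts in KO replicate 3 alone, and Tdrd1 with 5 counts in WT replicate 1 alone. The remaining 5 passed the filter on low counts, which a gene can pass through the group where it is higher, so no summary over them is given. Sycp1, a protein of the synaptonemal complex, had 206, 190 and 167 counts in WT and 0 in every KO library, at least 174-fold lower against a floor of 3 counts over the KO group. Taf7l, a germ cell transcription factor on chromosome X, was at 6.503 ± 1.44 CPM in WT and in KO had 5 counts in replicate 3 alone. Its fitted log2 fold change over all 6 libraries was -7.71 with an SE of 0.67. Ddx4, a germ cell helicase, had 33 to 42 counts in a WT library and in KO 5 counts in replicate 3 alone, with a fitted log2 fold change of -4.29 (SE 0.996). The floor covers counting error only. Sycp3, also of the synaptonemal complex, was higher, with 2, 16 and 3 counts in WT and 27, 33 and 39 in KO (log2 fold change 2.31, or 3.79 without WT replicate 2). Its call was lost in 5 of 15 alternatives (adjusted p up to 0.0845 among the fits that leave out 1 library). Brdt, a testis bromodomain gene, averaged 4.91 CPM in WT against 6.20 CPM in KO (adjusted p = 0.0691 by edgeR, not called).

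Genes with the most similar pattern were found by the Euclidean distance of gene-centred log2 CPM over the 6 libraries, among 14071 genes of at least 1 CPM on average. Nearest to Dnmt1 were Scrib (distance 0.0454), Tubg1 (0.0698) and Sf3a1 (0.0788), with log2 fold changes of -1.44, -1.42 and -1.42. Nearest to Tet1 were Ctla2b (0.356), Rasgrp3 (0.618) and Cdh3 (0.632). Dnmt3b lay nearest to Hoxb2, Adal and Ippk, and Mbd2 to Gpatch11, Nanp and Tarbp2. The measure takes in the difference between the groups as well as the order of libraries within them.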

How the data were processed

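RNA was sequenced from 3 WT and 3 KO libraries, grouped by title. For each Ensembl gene the deposited table gives raw counts beside FPKM, per the file headers. CASAVA 1.8, HISAT2, SAMtools 1.3.1 and edgeR with build GRCm39 are named, without roles, in the submitters' processing notes. The counter, its strand setting and the FPKM software were not given in the sources used here. Symbols were matched for 55394 of 56393 genes (98.23%) through GENCODE M21. That annotation and the RefSeq promoters are on GRCm38, so no coordinate was joined to the deposited data.

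Genes were filtered with filterByExpr, scaled by TMM and compared by edgeR 4.0.16 (R 4.3.3) with its quasi-likelihood test, robust option, with Benjamini-Hochberg adjustment over all 18732 genes. Limma 3.58.1 and DESeq2 1.42.0 served alternatives. The FPKM test kept genes at 0.1 FPKM or more in 3 libraries. The test was checked on simulated counts. Counts of replicates differed beyond sampling noise, with chi-square over its degrees of freedom at 22.6 to 34.8. The members and lists were chosen with earlier results of these data known. Named genes were the members, the 3 smallest adjusted p-values of each list and the nearest genes. Uhrf2, Usp7, Lig1, Dnmt3c, Mbd3, Mbd4, Zbtb4, Tdg, Cxxc4, Mat2a, Mat2b, Sycp3, Dazl, Tex19.1, Slc25a31, Tdrd1, Brdt and the cell type markers lie outside this rule and were named after their values were seen.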

Additional observations from a re-analysis of the deposited data

How the results depend on the processing

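Dnmt1, Uhrf1, Tet1 and Tet3 kept their direction and their call in all 16 alternatives. Members called higher in KO numbered 1 both with scaling by total counts and without a filter on low counts, where Tet2 lost its call, and 1 to 2 when 1 library was left out, which brought in Dnmt3a without WT replicate 1. Members called lower numbered 3 to 5 when 1 library was left out. Dnmt3b, Tet2 and Mbd2 each kept their call in 12 of 16 alternatives. Zfp57, never called, turned to -0.0367 (log2) with scaling by total counts, to -0.0365 and -0.0355 in the FPKM with pseudocounts of 0.1 and 1, and ranged from -0.0494 to 0.278 with 1 library left out. The causes were not tested. With the replicate number as a block, 12233 of all genes were called against 12980 without it, 2 members were higher and 4 lower, and Mbd2 lost its call (edgeR adjusted p = 0.0529). The deviations of same-numbered libraries correlated at -0.0237, 0.018 and -0.00904, so no pairing by number was seen over all genes. A pairing that moves few genes would not show in this correlation. Per kilobase of merged GENCODE exons, added after the data had been seen, Dnmt1 stood above Zfp57 in KO, and Uhrf1 and Zfp57 overlapped, as did Tet1 and Dnmt3b. The planned scaling by protein coding length was not run. Depth limits Tet1 in WT, at 36 to 115 counts, and the germline genes.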
